A study of Mus musculus with 6 samples.

Results

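The genes described here encode the mitochondrial respiratory chain and the ATP synthase, read in mouse embryoid bodies with and without induction of HOXB4. Members were all probe sets annotated to 1 gene only whose symbol begins with Ndufa, Ndufb, Ndufc, Ndufs, Ndufv, Uqcr, Cox4, Cox5, Cox6, Cox7, Cox8 or Atp5, or is Sdha, Sdhb, Sdhc or Sdhd. This rule, which uses no measured value, found 179 of 45101 probe sets, for 90 of the 18193 genes named on the array. Complex I subunits made up 36 of these genes, complex I assembly factors (symbols beginning with Ndufaf) 8, complex II 4, complex III 8, complex IV 17 and complex V, the ATP synthase, 17. Genes were sorted by symbol, which puts Ndufa4 and its paralogue Ndufa4l2 with the complex I subunits.

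The cells came from the Hoxb4i embryonic stem cell line, whose integrated tet-on cassette expresses HOXB4 when doxycycline is added; every sample carried it. Embryoid bodies, the aggregates in which such stem cells differentiate, were seeded at 3500 cells/ml, and were harvested on day 6. Uninduced bodies (3 arrays) received no doxycycline, and induced bodies (3 arrays) received doxycycline at 2 µg/ml for 48 hours from day 4. Experiments A, B and C each gave 1 array of either kind, and the series' design text calls the 3 experiments biological replicates. Total RNA (4.3 µg) was hybridized to Affymetrix Mouse Genome 430 2.0 arrays. All arrays rest on 1 stem cell line, and no sample received doxycycline without the cassette, so HOXB4 and doxycycline itself cannot be told apart. The RNA was taken from whole embryoid bodies, in which fewer cells of a type and less RNA per cell cannot be told apart.

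Complexes I and II pass electrons from NADH and succinate to ubiquinone, complex III passes them on to cytochrome c, and complex IV hands them to oxygen. Complexes I, III and IV pump protons across the inner mitochondrial membrane, and complex V uses the return flow to make ATP. Most subunits are encoded in the nucleus and are read here; the core membrane subunits of complexes I, III, IV and V are encoded by mitochondrial DNA. Pluripotent cells are known for relying largely on glycolysis, and the use of the respiratory chain grows as they differentiate, most of all in heart muscle.

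Nuclear respiratory factor 1 (NRF1) is a transcription factor known for binding the promoters of many of these genes. RefSeq promoter windows of assembly GRCm38.p6, each reaching from 250 bases before a gene's start to 50 bases after it, were matched for 74 of the 90 genes. The NRF1 motif, searched as the 10 letters that the capitals below spell and that read the same on either strand, occurred in 6 of the 74 windows (8.11%) and in 1.07% of the windows of all 27025 genes in the table. On either strand, the ETS-class letters CCGGAAGT (the kind GABPA binds) were in 5 member windows (6.76%, against 4.31% of all), the YY1 letters AAGATGGC in 10 (13.5%, against 3.19%) and the CREB letters TGACGTCA in 3 (4.05%, against 2.03%). At least 1 of the 4 motifs, none of which was required to stand apart from another, was found for 24 member genes (32.4%), against 9.93% of all. A match describes the letters in the window and is not a measured binding site.

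To show the NRF1 letters in place, the 250 bases before the start are given, 5′ to 3′ along the gene, for Atp5g2, a gene of the proton-carrying c ring of complex V, and Ndufaf4, an assembly factor of complex I. Capitals mark the NRF1 letters, whose first base lies 42 and 113 bases before the start. Atp5g2 is at chr15:102671048-102671297 on the minus strand and Ndufaf4 at chr4:24897833-24898082 on the plus strand.
Atp5g2: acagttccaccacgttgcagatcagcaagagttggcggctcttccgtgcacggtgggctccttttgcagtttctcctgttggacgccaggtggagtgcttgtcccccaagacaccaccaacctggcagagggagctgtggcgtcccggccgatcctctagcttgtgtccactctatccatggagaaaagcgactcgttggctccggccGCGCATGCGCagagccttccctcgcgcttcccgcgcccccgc
Ndufaf4: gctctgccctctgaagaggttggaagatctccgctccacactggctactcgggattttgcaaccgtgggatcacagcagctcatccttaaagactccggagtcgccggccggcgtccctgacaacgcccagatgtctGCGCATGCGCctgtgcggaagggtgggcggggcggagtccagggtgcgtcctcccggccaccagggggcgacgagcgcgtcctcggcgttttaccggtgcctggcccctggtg
The same stretch follows for Ndufaf2 and Atp5md, which differed between the experiments (described further on) and whose stretches hold none of the 4 motifs, so that no letter is in capitals. Ndufaf2 is at chr13:108158626-108158875 on the minus strand and Atp5md at chr19:47090648-47090897 on the minus strand.
Ndufaf2: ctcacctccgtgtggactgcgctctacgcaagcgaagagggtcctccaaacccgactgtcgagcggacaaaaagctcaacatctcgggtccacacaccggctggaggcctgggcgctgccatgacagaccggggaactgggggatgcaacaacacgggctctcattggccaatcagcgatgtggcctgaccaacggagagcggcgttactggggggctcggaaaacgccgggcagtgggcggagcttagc
Atp5md: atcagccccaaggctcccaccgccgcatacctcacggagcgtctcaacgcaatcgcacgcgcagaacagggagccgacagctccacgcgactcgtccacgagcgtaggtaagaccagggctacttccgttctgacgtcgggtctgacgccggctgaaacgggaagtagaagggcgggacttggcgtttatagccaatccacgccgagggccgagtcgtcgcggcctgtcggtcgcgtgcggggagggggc

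Array values were MAS5 signals, which summarize a probe set's probes in 1 linear intensity, and all differences below are of log2(signal + 18.8). The median signal of an array lay between 92 and 108.6. Both Hoxb4 probe sets were higher with doxycycline in 3 of 3 experiments, with log2 differences of 0.57 and 0.86 that did not pass limma's test (adjusted p = 0.99996 for each); the sources used here do not say whether they read the cassette's transcript. On the uninduced array of A the 3′ to 5′ signal ratio, a readout of how far the labelled copies reach along a transcript, was 2.88 for Actb (1.26 to 1.48 elsewhere) and 1.08 for Gapdh (0.834 to 0.903 elsewhere). The counts of calls and the medians by complex are therefore given with and without that array.

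A gene was represented by its tested probe set with the highest mean signal. Of the 90 member genes, 87 passed the filter on dim probe sets. The 3 that did not were Ndufb4, a complex I subunit (signals of 4.0 to 57.7), and the tissue-restricted complex IV isoforms Cox7b2 (0.6 to 46.2) and Cox8b (2.4 to 26.6), known from testis and from heart and skeletal muscle. The representatives' mean signals ran from 93.2 to 27217 with a median of 5126, beside a median of 616 over all 12452 tested genes. Over the 6 arrays the SD of the log2 values had a median of 0.23 for the member genes and 0.35 for all tested genes; whether this goes with their higher signals was not tested.

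The smallest SDs over the 6 arrays among the members were those of Cox7a2, Ndufa10 and Atp5e. Signals are written as uninduced and induced, with the letter of the experiment. Cox7a2, a widely expressed subunit of complex IV, had signals of 16291.2 (uninduced) and 16840.6 (induced) in experiment A, then 17797.4 and 17248.2 (B) and 17544.9 and 17052.2 (C). The 6 values spanned a narrow range (SD of 0.05 on the log2 scale), and the groups overlapped. Ndufa10, an accessory subunit of complex I, had the same SD of 0.05 with signals of 4600.2 to 5056.5. Atp5e, the epsilon subunit of the ATP synthase, had an SD of 0.07 with signals of 4436.0 to 4975.3. The largest SDs were those of Sdhd and Ndufa4l2 (0.80 each) and Atp5a1 (0.65), all taken up below.

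In the comparison of induced with uninduced embryoid bodies, no respiratory chain gene passed the test. The median log2 difference over the 87 genes was 0.03, with 53 higher and 34 lower, and over all tested genes it was 0.02. By complex the median was 0.0019 for complex I subunits (-0.010 with centred arrays), -0.02 for their assembly factors, 0.09 for complex II, 0.07 for complex III, 0.02 for complex IV and 0.04 for complex V. Limma called 0 of 87 member genes at an adjusted p under 0.05, beside 0.0% of all tested genes, and 0 of 87 at an unadjusted p under 0.05, beside 0.345%. Without the uninduced array of A these medians were -0.0047, -0.04, -0.20, -0.10, -0.05 and -0.10 in the same order, so that those of complex I subunits and of complexes II to V turned sign. With the experiment as a block, 0 of 87 passed after adjustment, and 1 of 87 (Ndufv1) before it, beside 3.08% of all tested genes. In the fit without the block, the 95% interval of a member's log2 difference reached 0.48 to either side at the median. For such a member, a difference within that width could not be told from 0 in that fit, even before adjustment.

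Among complex I subunits, Ndufv1, the subunit that binds NADH and FMN, had the smallest p among the members that were higher. Its signals were 2358.1 (uninduced) and 3930.1 (induced) in experiment A, then 3586.4 and 3705.4 (B) and 3551.9 and 4848.9 (C). All 3 induced signals lay above all 3 uninduced ones, and the step in B was small. The group means were 3165 ± 699 and 4161 ± 606 (SD, n = 3 each), a log2 difference of 0.41 with a 95% interval of -0.12 to 0.93 and a limma adjusted p of 0.99996. Without the uninduced array of A the difference was 0.21, and the other tested probe sets of Ndufv1 gave 0.06 and -0.03.

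Ndufa4l2, a paralogue of Ndufa4 known as a hypoxia-responsive gene, had the largest log2 difference of the 87, 0.72 (95% interval -0.49 to 1.93; limma adjusted p = 0.99996). Its signals were 143.4 and 539.7 (A), 292.9 and 291.6 (B), and 109.0 and 147.3 (C). The step was largest in A, and the groups overlapped. Ndufb9 and Ndufb5, accessory subunits in the membrane arm of complex I, differed by 0.40 and 0.30, of which 0.92 and 0.83 came in experiment A against 0.01 and 0.05 in B and 0.27 and 0.03 in C. Without the uninduced array of A they differed by 0.05 and 0.03, and their other tested probe sets gave -0.03 and -0.13.

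Of the members that were lower with doxycycline, those with the smallest p were Ndufa13, Cox4i2, Ndufc2 and Uqcrc2. Ndufc2, a membrane-arm subunit of complex I, had signals of 9033.4 and 8770.3 (A), 9621.1 and 8755.9 (B), and 9750.6 and 8270.6 (C). Every induced signal was below every uninduced one, by a mean log2 difference of -0.14. The other tested probe sets of Ndufc2 gave 0.13 and 0.07. Ndufa13, also known as Grim19, differed by -0.16 and Uqcrc2, a core protein of complex III, by -0.22, with overlapping groups. The Uqcrc2 value ran from -0.39 to -0.03 when 1 array was left out, and the second probe set of that gene gave -0.0067. Cox4i2, the isoform of subunit 4 known from lung and low oxygen, differed by -0.38 on dim signals of 68.0 to 154.2.

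Groups did not overlap for 4 of the 87 member genes (beside 3.94% of all tested genes). Induced signals were all higher for Cox5a, Ndufab1 and Ndufv1 (beside 2.21%) and all lower for Ndufc2 (beside 1.73%). Cox5a, a nuclear-encoded subunit of complex IV, had 10309.9 and 13623.2 (A), 12757.2 and 12888.4 (B), and 12470.5 and 12801.6 (C). Ndufab1, the mitochondrial acyl carrier protein, had 5619.5 and 6381.9 (A), 5660.9 and 5884.3 (B), and 5758.0 and 6058.8 (C). In these 2 genes too the step was largest in A. The other tested probe sets of Cox5a gave 0.29 and 0.14 with doxycycline, and those of Ndufab1 gave 0.07 and -0.42. The same sign in all 3 experiments was seen for 19 of 87 members, 12 of them higher and 7 lower, beside 26.1% of all tested genes (13.8% higher and 12.4% lower).

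The members' difference with doxycycline was positive in experiment A and slightly negative in B and C. The median induced minus uninduced log2 difference was 0.17 in A (64 genes higher, 23 lower), -0.04 in B (33 and 54) and -0.04 in C (34 and 53); over all tested genes it was -0.02, 0.02 and 0.02. In A it was 0.40 for complex II, 0.32 for complex V, 0.22 for complex III, 0.20 for complex IV, 0.18 for the assembly factors and 0.10 for complex I subunits. More than 2-fold differences were counted for 4 members in A (4.60%, beside 5.81% of all tested genes), for 1 in B (beside 3.48%) and for 0 in C (beside 4.98%). The uninduced array of A, with its 3′ to 5′ ratio of 2.88, enters every difference of that experiment. Without it the members' median with doxycycline was -0.045, with 32 genes higher and 55 lower, and 0 of 87 passed limma's test, beside 0.0% of all tested genes.

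**Figure D1:**
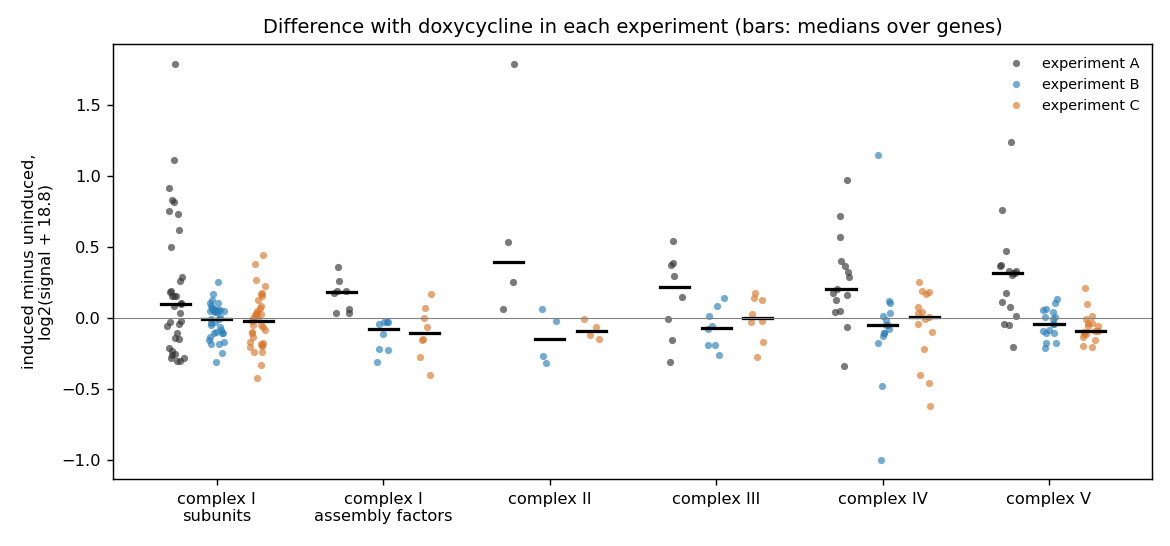
Each point is 1 member gene, placed by its induced minus uninduced difference of log2(signal + 18.8) in experiment A, B or C (vertical axis) and by complex (horizontal axis), and black bars are medians over genes. The medians of experiment A lie above 0 in all 6 groups of genes (0.10 to 0.40), and those of B lie below 0 (complex I subunits nearest, at -0.0060).

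Read array by array, complexes II, III, IV and V each had their lowest median on the uninduced array of A. Relative to each gene's mean over the 6 arrays, the median on that array was -0.57 for complex II, -0.39 for complex V, -0.25 for complex III, -0.13 for complex IV, -0.12 for the assembly factors and -0.0055 for complex I subunits. It held the lowest of the 6 values for 42 of 87 members (48.3%), beside 22.6% of all tested genes, and the highest for 13 (14.9%), beside 25.6%. The lowest value fell there for 12 of 17 complex V genes, 8 of 15 of complex IV, 4 of 8 of complex III, 3 of 4 of complex II, 14 of 35 complex I subunits and 1 of 8 assembly factors. The part of RNA quality in this pattern was not tested beyond leaving the array out.

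**Figure D2:**
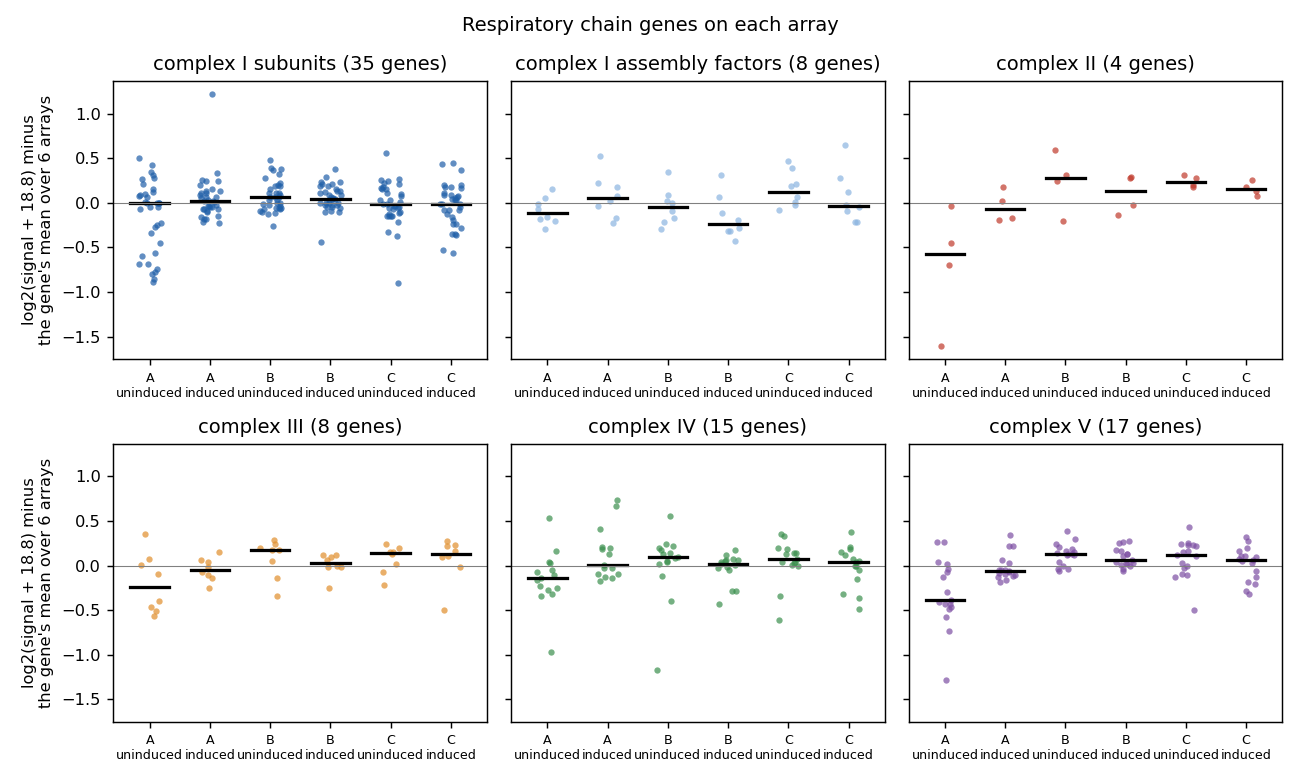
Each panel holds the genes of 1 complex, with each point 1 gene on 1 array, placed by its log2(signal + 18.8) minus that gene's mean over the 6 arrays, and black bars are medians over genes. On the uninduced array of A the median of complex II is at -0.57 and that of complex V at -0.39, whereas that of complex I subunits is at -0.0055.

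Probe sets of the same gene parted on that array. Of 161 tested member probe sets, 70 were below all other 5 arrays there and 23 above all of them, and 34 genes had a probe set below all others beside another that was not. These counts were made for the members only, so no share over all probe sets stands beside them. Sdhd encodes a membrane anchor of complex II. Its representative probe set read 861.8 on the uninduced and 3023.4 on the induced array of A, then 4024.9 and 3232.8 (B) and 3328.1 and 3190.9 (C), while its second probe set read 822.6 and 834.5, 620.5 and 636.3, and 507.1 and 252.6. The first was lowest, and the second was near its highest, on the uninduced array of A.

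Atp5a1, the catalytic-head alpha subunit of the ATP synthase, showed the same parting. The representative read 4937.7 and 11668.9 (A), 15764.8 and 13643.4 (B), and 16293.9 and 15094.2 (C). A second probe set read 8271.0 and 8310.6, 8539.2 and 8579.3, and 6776.1 and 7017.8. The low value of the representative on the uninduced array of A has no counterpart in the second probe set. For Ndufb9 the pair read 3084.8 and 5077.8 on that array, against 5846.2 to 7408.8 and 4637.4 to 5486.8 on the other 5. For Cox5a, 3 probe sets were lowest there, at 10309.9, 5057.2 and 7358.9, so in that gene they did not part.

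**Figure D3:**
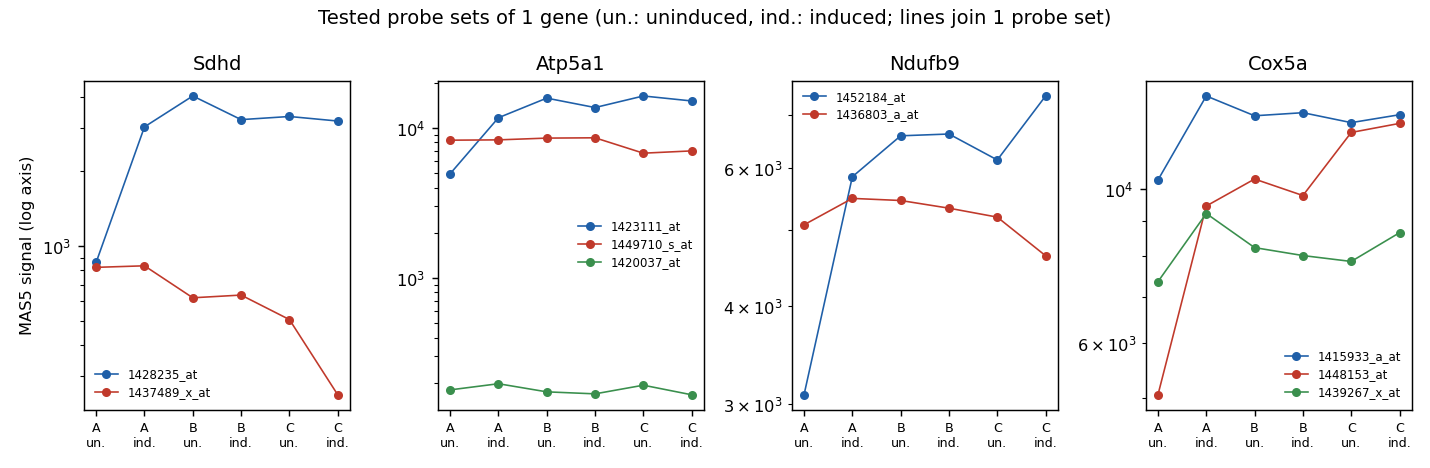
MAS5 signals (vertical axis, logarithmic) of every tested probe set of Sdhd, Atp5a1, Ndufb9 and Cox5a on the 6 arrays (un., uninduced; ind., induced), with a line joining the values of 1 probe set. On the uninduced array of A the blue probe sets of Sdhd (861.8), Atp5a1 (4937.7) and Ndufb9 (3084.8) are at their lowest, and the red ones of these genes are not.

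Over all members, 47 genes had several tested probe sets, and these pointed in opposite directions for 27 genes with doxycycline, 27 in B against A, 31 in C against A and 21 in C against B. Other genes on the array were not counted in this way, so whether the members stand out was not tested. The widest gaps in log2 difference between probe sets of 1 gene were 2.17 for Sdhd and 1.67 for Uqcrq, a small subunit of complex III, in C against A, and 1.62 for Atp5j2, a membrane subunit of complex V, in B against A. For Uqcrq and Atp5j2 the gap involved dim probe sets, with signals of 14.7 to 192.6 and 18.2 to 142.6.

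The experiments differed from one another in cell type markers, and few respiratory chain genes passed the test between them. These fits held 2 residual degrees of freedom, and induction was a covariate. In B against A, 0 of 87 members passed limma's adjusted threshold (beside 5.13% of all tested genes, 2.76% higher and 2.37% lower), and 25 were under an unadjusted p of 0.05 (beside 25.2%). In C against A, 2 of 87 passed (beside 7.41%, 2.77% higher and 4.64% lower), both of them lower, and 35 were under the unadjusted threshold (beside 26.9%). In C against B, 2 of 87 passed (beside 12.7%, 5.78% higher and 6.94% lower), 1 in each direction, and 8 were under the unadjusted threshold (beside 29.2%). The median absolute log2 difference of the members was 0.25, 0.32 and 0.14 in these comparisons in turn, against 0.35, 0.36 and 0.36 over all tested genes.

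Ndufaf2, an assembly factor of complex I also called mimitin, rose in experiment C against B. Its signals were 759.3 (uninduced) and 795.9 (induced) (A), 759.3 and 746.2 (B), and 1301.8 and 1467.2 (C). Both arrays of C lay above all 4 others. The log2 difference was 0.86 against B (95% interval 0.39 to 1.33; limma adjusted p = 0.0365) and 0.82 against A (0.34 to 1.29; adjusted p = 0.0533), the latter short of the threshold. Ndufaf2 has 1 probe set here, and its promoter stretch is among those printed above.

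Atp5md, the small complex V subunit also known as Dapit or Usmg5, fell in C against B. Its signals were 5258.9 and 6608.8 (A), 5739.8 and 6287.8 (B), and 3675.4 and 4252.2 (C). Both arrays of C lay below all others, by -0.60 against B (95% interval -0.94 to -0.26; limma adjusted p = 0.0405) and -0.57 against A (adjusted p = 0.0559). Within each experiment the induced array was the higher, by 0.33, 0.13 and 0.21 on the log2 scale, and the doxycycline test gave a limma adjusted p of 0.99996.

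Cox6b2, the isoform of complex IV subunit 6b known from testis, fell in C against A. Its signals were 2903.7 and 2291.5 (A), 2242.6 and 2088.8 (B), and 1296.4 and 1546.1 (C), with both arrays of C below all others. The log2 difference was -0.86 against A (95% interval -1.32 to -0.39; limma adjusted p = 0.047) and -0.61 against B (adjusted p = 0.111). Cox6b1, its widely expressed partner, read 14997 to 18631.2 over the 6 arrays, with a log2 difference of 0.19 in C against A that did not pass.

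Ndufb6, a membrane-arm subunit of complex I, fell in C against A in 1 of its 2 probe sets. The representative read 7506.3 and 6313.7 (A), 5053.8 and 5197.6 (B), and 4199.7 and 4140.0 (C), a difference of -0.72 (95% interval -1.07 to -0.37; limma adjusted p = 0.0351). The other probe set read 3300.0 and 4217.4, 4782.3 and 4885.2, and 4830.3 and 4138.1, a difference of 0.26 (limma adjusted p = 0.38). When probe sets of suffix _a_at are left out, the call is therefore lost and the difference changes sign. The first has A highest and C lowest, and the second does not repeat that order.

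**Figure D4:**
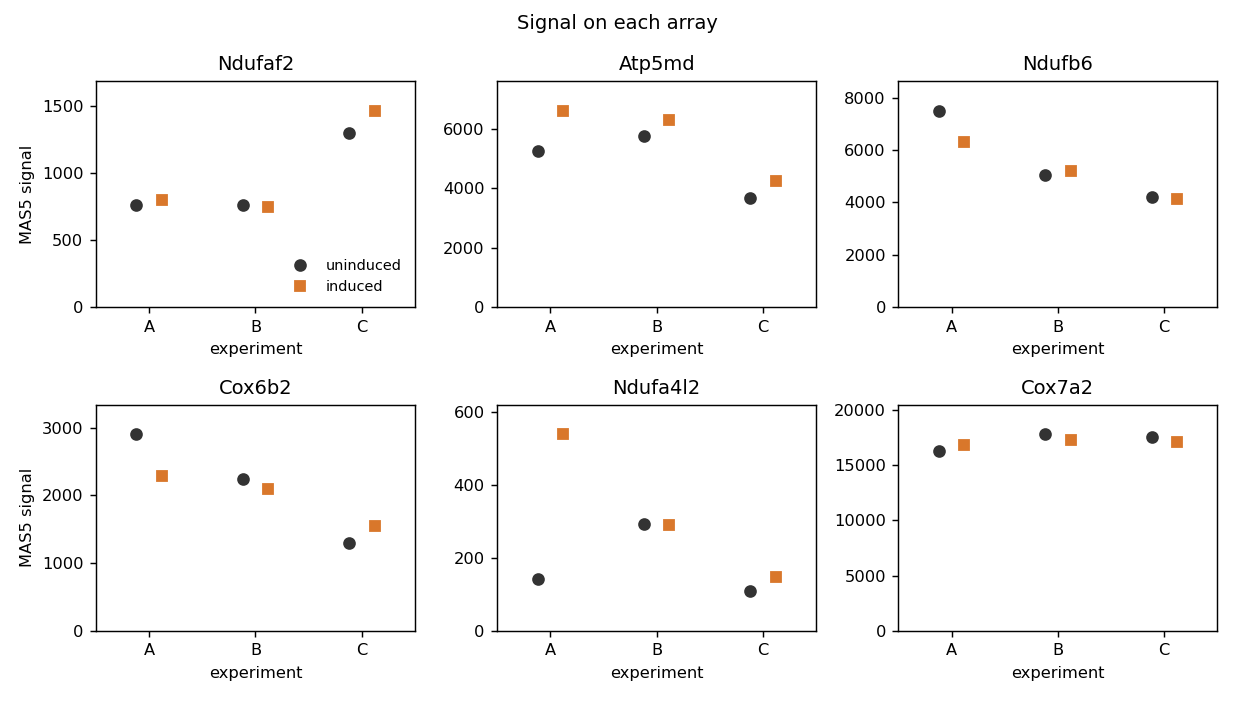
MAS5 signal (vertical axis, from 0) of 6 member genes in experiments A, B and C, with black circles for uninduced and orange squares for induced arrays, 1 array per symbol. Both arrays of C are above the others for Ndufaf2 (1301.8 and 1467.2) and below them for Atp5md, Ndufb6 and Cox6b2, Ndufa4l2 is high on the induced array of A (539.7), and Cox7a2 stays between 16291.2 and 17797.4.

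These calls rest on few arrays. Without the uninduced array of A, limma called 1 member in B against A (Ndufaf4, beside 13.2% of all tested genes), 12 in C against A (beside 16.9%) and 16 in C against B (beside 35.8%), among them 2 of the 2 called with all arrays in each of the last pair of comparisons. Without the induced array of A it called 35 in B against A (40.2% of the 87, beside 35.1% of all tested genes), 43 in C against A (49.4%, beside 35.1%) and 16 in C against B (18.4%, beside 35.9%). It called 1 in C against A without either array of B (beside 5.91% and 5.95%) and 0 without either array of C (beside 1.34% and 1.54%), and in C against B 0 without any of these 4 (beside 5.35% to 6.5%). With quantile normalization 5 members passed as lower in C against A (beside 4.12% of all tested genes) and 0 as higher (beside 2.56%), and with arrays centred on their median 1 passed as higher (beside 2.93%) and 0 as lower (beside 3.46%). Where 1 array of an experiment was left, it was assumed to vary like the others. Without the induced array of A, that experiment rests on its uninduced array alone. This is the array with the Actb 3′ to 5′ ratio of 2.88, where 42 of 87 members had their lowest value.

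Among the other members, no gene passed in B against A. Those with the smallest p are given here. Sdha, the flavoprotein of complex II, had 3002.1 and 4361.9 (A), 6058.0 and 5967.1 (B), and 5616.0 and 5162.7 (C). Its A signals were below all others, and its log2 difference was 0.73 (95% interval 0.29 to 1.17; limma adjusted p = 0.0764). Its other tested probe set gave 0.20. Ndufa4 is named for complex I and sorted there in this report, though it is now assigned to complex IV. It had 4869.7 and 7475.1 (A), 10945.6 and 9654.8 (B), and 10150.3 and 9595.6 (C), a difference of 0.77 (limma adjusted p = 0.0765).

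Atp5g3, like Atp5g2 a gene for the c ring, differed by 0.51 in B against A (limma adjusted p = 0.0787). In the lower direction stood Ndufaf4 with -0.66, Ndufb6 with -0.42 and Ndufa1, a small membrane-arm subunit, with -0.39 (limma adjusted p = 0.136, 0.149 and 0.18). In C against A, Atp5a1 had a difference of 1.04 and Ndufa4 of 0.71 (limma adjusted p = 0.0795 and 0.072). Without the uninduced array of A these differences were 0.35 and 0.33, and with that array standing alone for A they were 1.74 and 1.08. In B against A, Sdha gave 0.43 and Ndufa4 0.39 without it, Atp5g3 0.32, Ndufa1 -0.18 and Ndufaf4 -0.999, against 1.03, 1.14, 0.71, -0.59 and -0.33 with it alone.

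The core genes of the complexes had no call in any comparison. Of complex I, Ndufs1, an iron-sulphur subunit, read 2241.9 and 2496.2 (A), 2584.0 and 2692.3 (B), and 2920.3 and 2828.7 (C). Sdhb, the iron-sulphur subunit of complex II, read 4180.8 and 4989.3, 6775.0 and 5630.5, and 6929.0 and 6251.4. Uqcrc1, a core protein of complex III, read 3290.5 and 4805.5, 5063.9 and 5113.8, and 5777.2 and 5695.3. All of these, like Uqcrfs1, the Rieske protein, Cox4i1 of complex IV and Atp5b, the catalytic beta subunit of complex V, had their lowest value on the uninduced array of A. Their log2 differences in C against A ran from 0.27 for Cox4i1 to 0.54 for Uqcrfs1, with 0.37 for Atp5b.

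Among the heart and muscle isoforms of complex IV, Cox6a2 read 98.0 and 155.0 (A), 27.2 and 83.1 (B), and 113.9 and 81.7 (C), and Cox7a1 read 175.2 and 231.7, 196.8 and 136.3, and 187.6 and 115.8. Neither passed any test, though the summed signals of the 16 cardiac muscle markers were 5120.4 to 5212 in A, 10231.9 to 13010.1 in B and 994.5 to 1294.9 in C. The groups overlapped for each isoform. Cox8c, an isoform known from testis, read 175.4 to 304.4, and Cox8a, its widely expressed partner, 2314.0 on the uninduced array of A and 4552.0 to 5904.1 on the others.

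By complex, the median log2 difference in B against A was 0.58 for complex II, 0.35 for complex V, 0.30 for complex III, 0.11 for complex IV, 0.05 for complex I subunits and -0.12 for the assembly factors; with quantile normalization the complex IV median was -0.065, and with arrays centred on their median that of the assembly factors was 0.0010. In C against A it was 0.55, 0.37, 0.29, 0.10, 0.0071 and 0.03 in the same order, and with quantile normalization -0.047 for complex IV and -0.076 for complex I subunits. In C against B it was -0.03 for complex II, -0.00025 for complex V, 0.05 for complex III, -0.02 for complex IV, -0.05 for complex I subunits and 0.21 for the assembly factors; with quantile normalization those of complexes II, IV and V were 0.014, 0.048 and 0.050, and with centred arrays that of complex III was -0.0062. Without the uninduced array of A, the medians in B against A were 0.18 for complex II, 0.13 for complex V, 0.14 for complex III, 0.04 for complex IV, 0.016 for complex I subunits and -0.23 for the assembly factors. For C against A they were 0.22, 0.17, 0.14, -0.0073, 0.0047 and -0.07 in the same order. Quantile normalization, with all arrays, gave 0.06 for complex III and 0.17 for complex V in B against A, and 0.18 for complex V in C against A. The first pair of comparisons share the arrays of A, so their likeness is not a separate observation. Over the 87 genes the medians were 0.13, 0.16 and -0.00025, beside -0.06, 0.01 and 0.07 over all tested genes. Centring the arrays moved the medians in B against A by 0.12 and those in C against A by 0.071. Without the uninduced array of A the values for B and C against A became 0.065 and 0.069, and with quantile normalization 0.013 and 0.058.

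Signals of cell type markers moved with the experiments, and their part in the member differences was not tested. In C against B, where 12.7% of all tested genes passed, 10 of 11 tested neural markers passed limma's test as higher (median 2.99). As lower, 7 of 8 endothelial, 8 of 13 cardiac and 7 of 12 endoderm markers passed (medians -3.09, -2.12 and -1.94), and 2 of 8 erythroid ones. By direction alone, 11 of 11 neural markers were higher, beside 55.6% of all tested genes. Lower were 8 of 8 endothelial, 13 of 13 cardiac, 9 of 12 endoderm and 7 of 8 erythroid markers. The summed signals were 1002.7 to 1380.7 in B and 13635.6 to 14665.8 in C for the neural list, 6060.7 to 6406.4 and 449.4 to 933.2 for the endothelial list, and 26684.7 to 37206.8 and 1809.7 to 1855.7 for the erythroid list. For the 8 pluripotency markers they were 4763.1 to 4797.5 in B and 7390.7 to 7659.3 in C. All 8 were higher in C against B, and 3 of them passed. With doxycycline, 0 markers of any of these lists passed limma's test, beside 0.0% of all tested genes.

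Among other genes of the pathway, 0 were called in each list with doxycycline (beside 0.0% of all tested genes). In C against A, 1 of 38 electron carriers and assembly factors passed (beside 7.41% of all tested genes), Ttc19, a complex III factor, at -1.03 (limma adjusted p = 0.0497). Of 15 citric acid cycle genes, 1 passed in C against B (beside 12.7%), Pdha1 of the pyruvate dehydrogenase, at 0.73 (adjusted p = 0.0184). Of 13 tested regulators of mitochondrial gene expression (Ppargc1a was not tested), Polg, the mitochondrial DNA polymerase, and Polrmt, the mitochondrial RNA polymerase, were lower in C against A (2 of 13, beside 7.41%), at -1.33 and -0.98 (limma adjusted p = 0.0109 and 0.0494). Polg was lower in C against B as well, at -1.24 (limma adjusted p = 0.00519), as 1 of 13 (beside 12.7%). By direction, 1 regulator was higher and 12 were lower in B against A (median -0.42), beside 45.6% of all tested genes higher. Of these regulators 0 were called (beside 5.13%). In C against A 3 were higher and 10 lower (median -0.17), and in C against B 9 were higher and 4 lower (median 0.19).

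Polg read 2273.5 and 2735.2 (A), 2008.7 and 2708.9 (B), and 931 and 1026.6 (C), so both arrays of C stood below the rest. Among the genes of mitochondrial DNA, only ND5 had a probe set named for it here. It read 22962.3 and 12136.8 (A), 8653.4 and 8190.9 (B), and 14141.8 and 16435.1 (C), with B lowest and no limma call (B against A, -0.99, adjusted p = 0.0637; C against B, 0.86, adjusted p = 0.0664).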

How the data were processed

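The 6 arrays, 3 uninduced and 3 induced, were compared over genes; the members and lists were chosen with earlier results of these data known. The deposited values are linear intensities, 1 for each probe set on an array, made with MAS5 per the submitters' processing notes (no version given). With 2% trimmed off either end, the mean was 500 on each array. Detection calls were not used, and precision is limited by the number of arrays.

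From these, log2(signal + 18.8) was computed, 18.8 being the 20th percentile of all values, so that fold changes of dim probe sets are understated. After 64 control probe sets were removed, probe sets with a mean below the 40th percentile (60.5) were left untested, which kept 27022. Symbols came from GEO's platform annotation, updated by Entrez ID through a RefSeq table of assembly GRCm38.p6 (34741 of 34945 probe sets named for 1 gene matched; 932 named several genes and 9160 none). The update changed 0 member symbols, and 10 probe sets that name several genes, a member among them, were not read.

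limma 3.58.1 in R 4.3.3 was fitted across all tested probe sets with an intensity trend and Benjamini-Hochberg adjustment (threshold 0.05, two-sided). Doxycycline was tested without the experiment as a block, and the experiments with induction as a covariate. Differences between the experiments therefore enter the spread of the doxycycline test. Its intervals, p and ranking of genes come from that fit unless the block is named. Each letter marks a shared experiment in the labels, which pairs the arrays. With each group centred on its own mean, arrays of a letter deviated together (correlations of 0.45 to 0.67, against -0.53 to -0.12 for different letters). The centring pushes the latter below 0 where the former lie above it, so they are not a separate observation. The scripts were also run on simulated data. The simulated doxycycline case held no differences between experiments, so it does not show how that test performs on these arrays.

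Genes were named by fixed rules: for doxycycline the 4 genes with the smallest p in each direction; for each pair of experiments those past the threshold, or the 3 with the smallest p in a direction where none passed; core genes and tissue isoforms; the 3 largest and 3 smallest SDs; and the 3 widest gaps between probe sets. Cox5a, Ndufab1 and Ndufc2 were also named for groups that do not overlap, after their values were seen. Alternatives changed the offset, filter, trend, normalization, probe set choice, covariates and arrays.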

Additional observations from a re-analysis of the deposited data

How the results depend on the processing

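With doxycycline, 0 members were called under every alternative tried, and the members' median ran from -0.045 to 0.066 when 1 array was left out; the replicate block changed no call. In B against A, the count ran from 0 to 35 and the median from 0.065 to 0.22 with 1 array left out, and the median was 0.25 with arrays centred on their median. In C against A, leaving out 1 array gave counts of 0 to 43 and medians of 0.069 to 0.20. The count of 2 there (beside 7.41% of all tested genes) became 1 with an offset of 1 (beside 6.0%) or with centred arrays (beside 6.39%). It was also 1 without probe sets of suffix _x_at, _s_at or _a_at (beside 7.32%). It became 3 with the filter at the 60th percentile (beside 8.81% of the genes tested there). The count was 4 with an offset at the 40th percentile (beside 8.67%) or with no induction covariate (beside 9.34%). Quantile normalization gave 5 (beside 6.68%). With no filter (beside 3.34%) or with no intensity trend (beside 0.891%) it was 0. The median in C against A was 0.058 with quantile normalization, 0.23 with centred arrays and 0.28 without those suffixes. That in B against A was 0.013 with quantile normalization, with 45 genes higher and 42 lower. In C against B, leaving out 1 array gave counts of 0 to 16 and medians of -0.10 to 0.057; the median was 0.047 with quantile normalization and -0.053 with centred arrays, and the count of 2 became 1 with no filter or structural subunits only, and 0 with no intensity trend. Of all tested genes, 7.24% passed in C against B with no filter and 8.21% with no intensity trend, against 12.7% in the main fit. Without the uninduced array of A the members' median in C against B stayed at -0.00025. With both arrays of B and of C present, the arrays of A enter that comparison only through the spread. The causes of the other changes were not tested. Of the single-gene values recomputed, 253 kept their direction and their side of the threshold, 27 lost their call and 15 gained one. The other 3 changed direction without probe sets of those suffixes, where the gene is read from its brightest remaining probe set: Ndufb6 with 0.37 in B against A and 0.26 in C against A, and Ndufc2 with 0.071 with doxycycline. A replicate block with the uninduced array of A left out, chosen after seeing the data, gave a median of -0.039 and 0 member calls, beside 1.04% of all tested genes.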
